A study of Mus musculus with 30 samples.

Results

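Nr3c1, Nr3c2, Fkbp5, Fkbp4, Sgk1, Tsc22d3, Hsd11b1, Zbtb16 and Ddit4 encode the corticosteroid receptors of the mouse, partners of these receptors, an enzyme that makes their ligand and genes that glucocorticoids induce. These 9 genes were taken by name out of the 55335 genes counted, with earlier results of these data known. The counts come from ribosome-associated RNA of the nucleus accumbens of female mice. All mice carried a Cre driver and the RiboTag allele (RT), which puts an HA tag on a ribosomal protein in cells that express Cre, so that an antibody against HA brings down polyribosomes of those cells. D1-Cre-RT mice mark medium spiny neurons of the D1 receptor class, and A2A-Cre-RT mice mark those of the D2 receptor class, whose libraries are called D2 here. The tag is present in any cell in which the driver is active, which need not be a medium spiny neuron. Mice of each genotype were either unstressed (Control) or went through chronic witness defeat stress (CWDS) and were then grouped by social interaction score as Resilient or Susceptible. The 6 groups, D1 Control, D1 Resilient, D1 Susceptible, D2 Control, D2 Resilient and D2 Susceptible, had 5 libraries each, 30 in all. Punches were collected 24 h after social interaction was scored. Libraries were pools of 4 mice with like scores, made from 10 ng of RNA with a SMART-Seq kit. The labels used here state no ages. Since each library is a pool, p-values measure the spread between pools and not between single mice.

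Corticosterone, the glucocorticoid of mice, binds the mineralocorticoid receptor (Nr3c2) at low concentrations and the glucocorticoid receptor (Nr3c1) as its level rises under stress. Before binding hormone, the glucocorticoid receptor is held by Hsp90 and its co-chaperones. Fkbp5 lowers its affinity for hormone in that complex, and Fkbp4, which takes the place of Fkbp5 after hormone binds, helps carry it to the nucleus. There the receptor raises the transcription of a set of genes that includes Fkbp5 itself, so that Fkbp5 closes a negative feedback loop and is often read as a marker of glucocorticoid action in brain.

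The glucocorticoid receptor binds DNA most strongly as a dimer on a palindrome of paired hexamers. The bases before a start site are therefore shown for 4 members on which the results turn, as RefSeq gives them on GRCm38.p6. Sgk1 and Tsc22d3 have further start sites, and the stretch shown for each is the one with the most matches. Capitals mark matches, on either strand, to the palindrome, searched as GNACA and TGTNC with any 3 bases between them (N is any base), or to its arm AGAACA, and these can overlap. The Sgk1 stretch is chr10:21993640-21993889 on the plus strand, the Tsc22d3 stretch chrX:140600523-140600772 on the minus strand, the Fkbp5 stretch chr17:28486150-28486399 on the minus strand and the Fkbp4 stretch chr6:128438657-128438906 on the minus strand. Each is written 5′ to 3′ toward the start site.
Sgk1: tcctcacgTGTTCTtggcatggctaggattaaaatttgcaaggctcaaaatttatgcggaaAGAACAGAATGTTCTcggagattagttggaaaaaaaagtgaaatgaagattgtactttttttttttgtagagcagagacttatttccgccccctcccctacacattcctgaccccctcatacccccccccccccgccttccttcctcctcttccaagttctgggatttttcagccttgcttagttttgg
Tsc22d3: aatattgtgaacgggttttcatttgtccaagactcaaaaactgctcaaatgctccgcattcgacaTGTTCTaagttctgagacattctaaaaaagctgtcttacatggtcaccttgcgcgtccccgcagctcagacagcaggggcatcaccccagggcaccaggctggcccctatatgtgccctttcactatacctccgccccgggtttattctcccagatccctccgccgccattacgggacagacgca
Fkbp5: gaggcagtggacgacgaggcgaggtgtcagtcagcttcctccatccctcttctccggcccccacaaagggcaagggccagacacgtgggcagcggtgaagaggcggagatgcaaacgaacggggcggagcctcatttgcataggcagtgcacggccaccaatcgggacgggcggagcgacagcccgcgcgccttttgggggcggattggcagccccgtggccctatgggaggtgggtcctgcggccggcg
Fkbp4: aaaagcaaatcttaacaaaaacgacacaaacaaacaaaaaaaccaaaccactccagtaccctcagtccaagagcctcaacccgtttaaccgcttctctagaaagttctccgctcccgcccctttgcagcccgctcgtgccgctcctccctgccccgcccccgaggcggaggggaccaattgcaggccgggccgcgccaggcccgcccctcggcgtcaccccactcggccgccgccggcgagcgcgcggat

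The table of promoters held 14 windows of 7 of the 9 genes, each from 250 bases before to 50 bases after a start site. Sgk1 had 6 of these windows, Tsc22d3 had 3 and each other gene had 1. The palindrome occurred in 1 of these windows, that of Sgk1 shown above, where its first base lies at position -188 from the start. It occurred in 0.475% of all 32851 promoter windows searched (156 windows). The arm AGAACA occurred in 19.0% of all windows and in 4 of the 14, of which 3 belong to Sgk1 and 1 to Tsc22d3. In the Tsc22d3 window shown above, the first base of the arm lies at -185. The Sgk1 window at the first base of the gene, 21882184, held the arm but not the palindrome. The Fkbp5, Fkbp4, Nr3c2, Hsd11b1 and Ddit4 windows held neither set of letters. These are matches of letters within short windows only, and binding was not measured.

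Of the libraries as a whole, the gene counts ranged from 28996168 to 65882152, and 28 libraries detected 19440 to 22375 genes with at least 1 count. D2 Susceptible replicates 1 and 2 detected 15822 and 16525. Replicate 1 also held 267 counts of Ddx3y and 144 of Uty, genes of the Y chromosome, and replicate 2 held 56 of Ddx3y, against at most 13 of Ddx3y and 0 of Uty in any of the other 28 libraries, although the labels give all mice as female. In D1 Susceptible replicate 1, 41.2% of reads lay outside genes and 54.9% of gene counts fell on 1 feature, Gm42418. Several of the values that these libraries move, but not all, are given below with and without them. The summed level of 7 D1 neuron markers was 1829 to 2744 CPM in the 15 D1 libraries and 291 to 1936 CPM in the 15 D2 libraries, and that of 5 D2 neuron markers was 1120 to 2771 CPM in D1 and 4867 to 12799 CPM in D2. The D2 marker ranges did not overlap, but D2 Resilient replicate 5, at 1936 CPM, carried more D1 marker RNA than 3 of the D1 libraries.

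All 9 genes were above the filter on low counts. Levels per library are CPM, a gene's counts per 1000000 counts of its library with library sizes scaled by TMM, and levels between genes are compared per kilobase of exon. On that scale the order of the 30-library means was Fkbp4 (56.4 CPM per kb), Ddit4 (41.8), Nr3c1 (14.2), Nr3c2 (11.0), Sgk1 (8.96), Tsc22d3 (7.59), Fkbp5 (7.03), Zbtb16 (0.875) and Hsd11b1 (0.180). Fkbp4 was above Ddit4 in 26 of 30 libraries, Nr3c1 above Nr3c2 in 30 and Nr3c2 above Sgk1 in 29. The neighbours Sgk1 and Tsc22d3 kept their order in 25 libraries and Tsc22d3 and Fkbp5 in 19, so the last of these pairs was not set apart by the spread between libraries. In the libraries of both classes, then, per kilobase, receptor mRNA on ribosomes was richer in the glucocorticoid than in the mineralocorticoid receptor. The co-chaperone Fkbp4 was the most abundant of the 9 on average. The share of other cells in these levels was not tested.

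**Figure D1:**
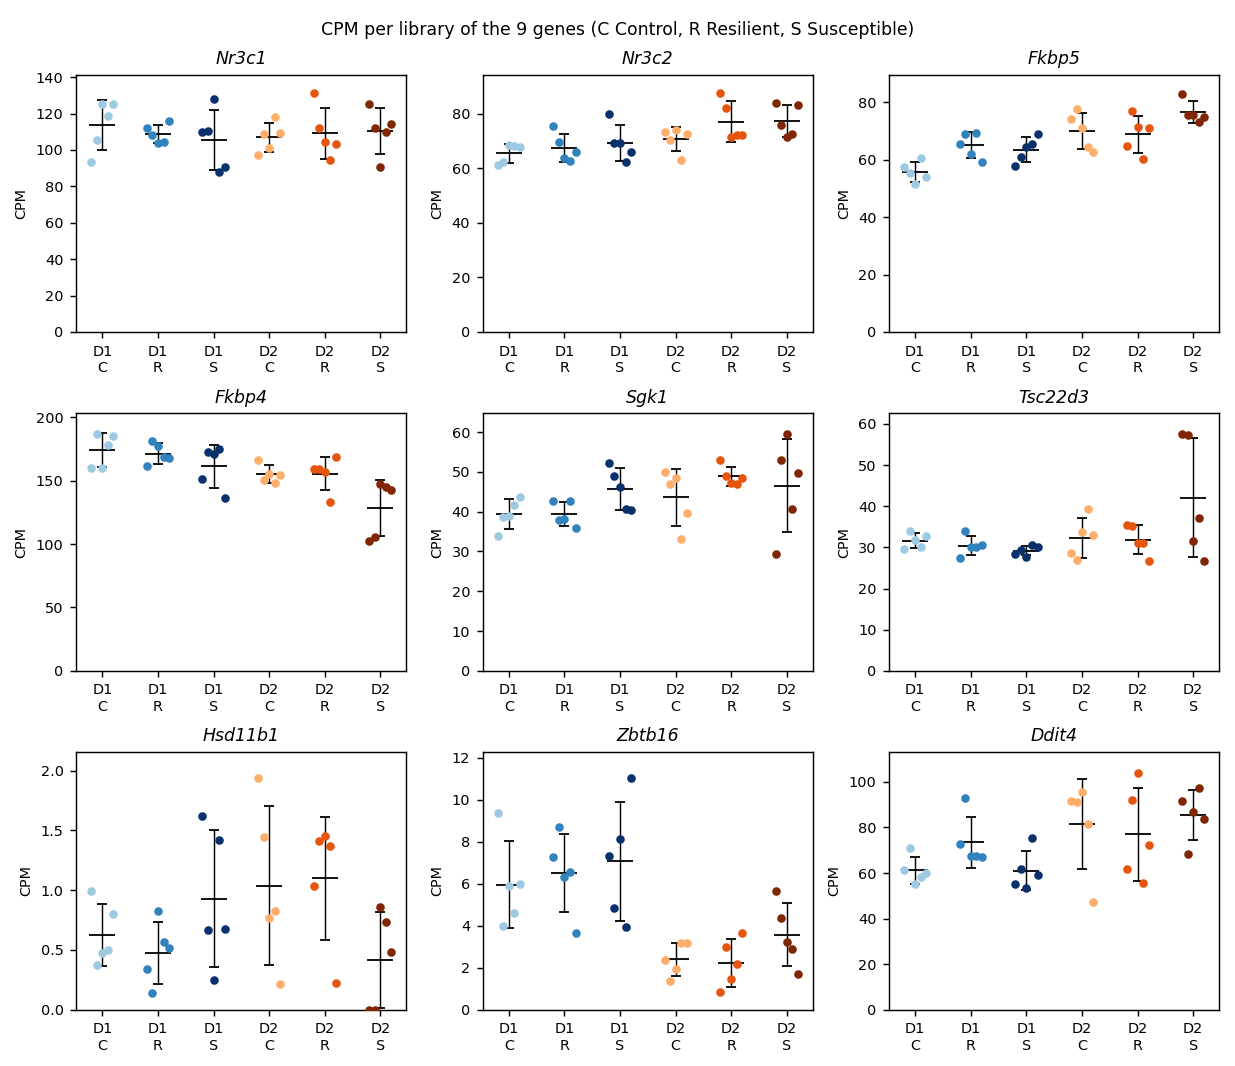
Level of each of the 9 genes in the 30 libraries, in CPM on a linear axis from 0, by class (D1, D2) and condition (C Control, R Resilient, S Susceptible). Each point is a library, and bars give the mean ± SD of 5 libraries. Tsc22d3 and Fkbp4 each show 2 D2 Susceptible libraries apart from the rest, and Zbtb16 lies higher in D1 than in D2.

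The stress comparisons asked which genes CWDS changes within D1 or within D2 libraries, and which differ between the stressed groups split by social interaction. Tests were made on the counts with edgeR's quasi-likelihood test, with Benjamini-Hochberg adjustment over all 19368 genes tested. None of the 9 genes passed an edgeR adjusted p of 0.05 in any of the 6 comparisons within a class, and by DESeq2 and by voom also 0 passed. The share of all genes that edgeR called was 0% in each of the 3 D1 comparisons, 0.00516% in D2 Susceptible against Control, 0% in D2 Resilient against Control and 0.0516% in D2 Susceptible against Resilient, so a count of 0 of 9 is what the background gives. At an unadjusted p under 0.05 there was 1 of the 9 genes in D1 Susceptible against Control (2.40% of all genes), 1 in D1 Resilient against Control (2.60%) and 0 in D1 Susceptible against Resilient (3.49%). In D2 there were 2 in Susceptible against Control (15.7% of all genes), 0 in Resilient against Control (4.20%) and 2 in Susceptible against Resilient (19.1%). No D1 comparison separated the libraries of its groups without overlap for any of the 9 genes, where 0.888%, 1.54% and 1.12% of all genes were so separated in the same order. In D2, Fkbp4 was separated in Susceptible against Control (1.31% of all genes), and none of the 9 in Resilient against Control (1.31%) or Susceptible against Resilient (1.50%). The gene behind both D1 counts was Fkbp5, and the genes behind both D2 counts were Fkbp4 and Tsc22d3. Comparisons of a class that share Control, Resilient or Susceptible libraries are not independent of each other.

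**Figure D2:**
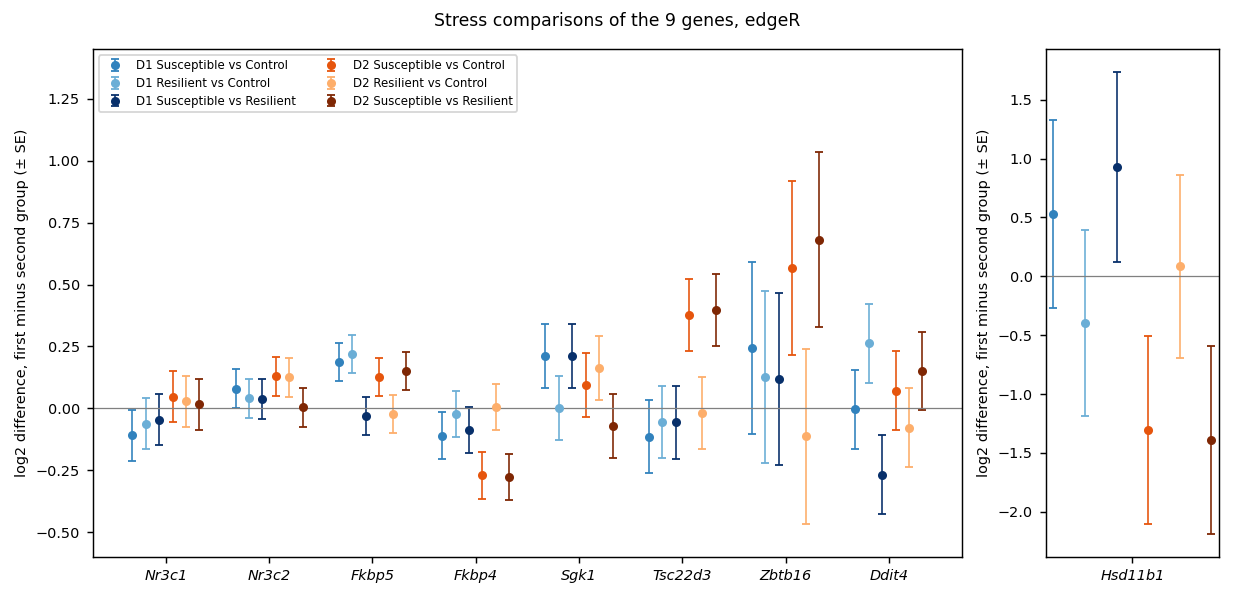
Log2 difference of each gene in the 6 stress comparisons (points), with its standard error (bars), from edgeR. Positive values are higher in the group named first. Hsd11b1 has an axis of its own because its low counts give wide errors. None of the differences passed an adjusted p of 0.05.

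Nr3c1 (ENSMUSG00000024431, chromosome 18, 39410545 to 39519421, GRCm38), the glucocorticoid receptor, was nearly level over the design. Its group means ran from 105 ± 16.6 CPM (SD, n = 5) in D1 Susceptible to 114 ± 13.8 CPM in D1 Control, a ratio of 1.08 between the highest and the lowest group. Single libraries lay between 87.7 CPM in D1 Susceptible replicate 4 and 131 CPM in D2 Resilient replicate 1, and every pair of groups overlapped. The log2 difference between Susceptible and Control was -0.11 in D1 (SE 0.103, edgeR adjusted p 1; -0.19 without D1 Susceptible replicate 3 and -0.05 without replicate 4) and 0.05 in D2 (SE 0.103, edgeR adjusted p 0.857). The D2 value turned to -0.03 without D2 Susceptible replicates 1 and 2. Between the classes, over all conditions, the difference was 0.01 (SE 0.0595, edgeR adjusted p 0.954), and it turned to -0.01 with DESeq2 size factors.

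Nr3c2 (ENSMUSG00000031618, chromosome 8, 76899442 to 77245012), the mineralocorticoid receptor, was 61.3, 62.3, 68.5, 68.1 and 67.8 CPM in D1 Control replicates 1 to 5 and 73.3, 70.5, 73.9, 63.2 and 72.5 CPM in D2 Control. In D2 Susceptible it was 83.8, 75.7, 71.4, 72.4 and 83.04 CPM. Control libraries of the classes overlapped, and D2 Susceptible lay partly above D2 Control. The change from Control in D2 was 0.13 on the log2 scale in Susceptible (SE 0.0788, edgeR adjusted p 0.429) and 0.12 in Resilient (SE 0.0788, edgeR adjusted p 1.00), and over both classes and both stressed groups it was 0.09 (SE 0.0485, edgeR adjusted p 1.00). The Susceptible value was 0.09 without D2 Susceptible replicates 1 and 2 and 0.09 without D2 Control replicate 4, and the Resilient value was 0.07 without D2 Resilient replicate 1. The counts of Nr3c2 are uncertain to the extent that an exon of the antisense gene Gm10649 overlaps it, since no label states whether the counting used strand. Gm10649 had 4107 counts in the 30 libraries and Nr3c2 had 115813.

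The ratio of Nr3c2 to Nr3c1 within a library does not depend on library size. In D1 its mean log2 value (± SD, n = 5) was -0.79 ± 0.111 for Control, -0.69 ± 0.0946 for Resilient and -0.59 ± 0.190 for Susceptible. In D2 it was -0.60 ± 0.193 in Control, -0.50 ± 0.0772 in Resilient and -0.51 ± 0.108 in Susceptible. In both classes the Control mean was the lowest of the 3, with ranges that overlapped. These ratios were set out as a description and not tested.

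Fkbp5 (ENSMUSG00000024222, chromosome 17, 28399094 to 28517527), the feedback co-chaperone, gave the smallest p of the 9 genes in the D1 comparisons with Control. In D1 Control it was 57.4, 55.3, 51.7, 60.7 and 54.04 CPM in replicates 1 to 5. In D1 Resilient it was 65.6, 69.01, 61.8, 69.4 and 59.03 CPM, and in D1 Susceptible 57.7, 60.8, 64.6, 65.5 and 68.9 CPM. Of the 10 stressed D1 libraries, 8 lay above all 5 D1 Control libraries, and the groups overlapped only through Control replicate 4 with Resilient replicate 5, and through Control replicate 4 with Susceptible replicate 1. The log2 difference was 0.22 in D1 Resilient (SE 0.0772, 1.16-fold, unadjusted p 0.0079, edgeR adjusted p 1). It was 0.19 in D1 Susceptible (SE 0.0774, 1.14-fold, unadjusted p 0.0212, edgeR adjusted p 1), and 0.23 without replicate 1 of that group. Both values use the same Control libraries, and neither held up against all genes tested.

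In D2, Fkbp5 was 74.1, 77.6, 71.2, 64.4 and 62.7 CPM in Control, 64.6, 77.1, 71.4, 60.3 and 70.9 CPM in Resilient, and 83.04, 75.7, 75.7, 73.1 and 74.8 CPM in Susceptible. The Resilient libraries lay over the same span as the Control libraries, and their log2 value was -0.02 relative to Control (SE 0.0771, edgeR adjusted p 1.00). The Susceptible libraries lay in and above the upper part of Control, with a difference of 0.13 (SE 0.0771, edgeR adjusted p 0.422) that was 0.08 without replicates 1 and 2. The change of Fkbp5 with Resilience in D1 minus that in D2 was 0.24 (SE 0.109, unadjusted p 0.0335, edgeR adjusted p 0.944). This difference between the classes did not pass, and 4.99% of all genes had an unadjusted p under 0.05 in that test, where edgeR called 0. Over both classes and both stressed groups the difference was 0.13 (SE 0.0475, unadjusted p 0.0114, edgeR adjusted p 1), where edgeR called 0.00516% of all genes and 0 of the 9, and 3.81% of all genes had an unadjusted p under 0.05.

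Markers of other cells moved beside Fkbp5 in D1 Resilient. Against D1 Control, 7 of 8 oligodendrocyte markers, 4 of 8 astrocyte markers, 3 of 7 mural markers and 2 of 7 microglial markers were lower at an unadjusted p under 0.05, and none passed the edgeR adjustment. Of all genes, 2.60% had such a p in either direction. Summed marker levels were 394 to 561 CPM in D1 Resilient against 521 to 1055 CPM in D1 Control for oligodendrocytes, and 44.3 to 59.1 against 47.4 to 172 CPM for astrocytes. For mural cells they were 12.9 to 16.6 against 16.6 to 34.6 CPM, and for microglia 24.2 to 29.7 against 25.3 to 78.4 CPM. The Control maximum was replicate 1 in each of these lists, and the other 4 Control libraries reached 628 CPM for oligodendrocytes, 63.8 CPM for astrocytes, 19.9 CPM for mural cells and 33.1 CPM for microglia. The mural markers Kcnj8 and Acta2 were at 0 in 1 Resilient library each, Acta2 also in 1 Control library, and no oligodendrocyte, astrocyte or microglial marker was at 0 in these groups. Summed D2 neuron markers were 1333 to 2753 CPM in D1 Resilient against 1331 to 2254 CPM in D1 Control, with the Resilient maximum in replicate 5. The part of all these cells in the Fkbp5 difference was not tested. In these libraries of pooled tissue, fewer cells of a type and less RNA per cell cannot be told apart.

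Fkbp4 (ENSMUSG00000030357, chromosome 6, 128429735 to 128438677), the co-chaperone that favours receptor transport, was lower in D2 Susceptible through 2 libraries. It was 166, 151, 155, 148 and 154 CPM in D2 Control replicates 1 to 5 and 160, 159, 157, 134 and 168 CPM in D2 Resilient. In D2 Susceptible it was 102, 106, 147, 145 and 142 CPM. All 5 Susceptible libraries lay below all 5 Control libraries, which 1.31% of all genes did in either direction, and replicates 1 and 2 lay below all of the other 28 libraries, which ranged from 133.5 to 187 CPM. The log2 difference was -0.27 against Control (SE 0.0939, 0.829-fold, unadjusted p 0.00697, edgeR adjusted p 0.189) and -0.28 against Resilient (SE 0.0939, edgeR adjusted p 0.111). Without replicates 1 and 2 the values were -0.11 against Control and -0.11 against Resilient, each with an edgeR adjusted p of 1. When replicate 3, a library with a usual level, was left out, Fkbp4 passed against Control (-0.33, edgeR adjusted p 0.0481) and against Resilient (-0.33, edgeR adjusted p 0.0295), and without replicate 5 it passed against Resilient (-0.32, edgeR adjusted p 0.0436).

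In D1, Fkbp4 was 160, 187, 160, 178 and 185 CPM in Control, 161, 181, 177, 169 and 168 CPM in Resilient and 152, 173, 171, 175 and 136 CPM in Susceptible. All 3 groups overlapped, and the Susceptible difference from Control was -0.11 (SE 0.0939, edgeR adjusted p 1), -0.05 without Susceptible replicate 5 and -0.08 without replicate 1. The ratio of Fkbp5 to Fkbp4 joins both co-chaperones within a library. Its mean log2 value was -1.64 ± 0.128 in D1 Control, -1.40 ± 0.111 in D1 Resilient and -1.34 ± 0.206 in D1 Susceptible. In D2 it was -1.15 ± 0.125 in Control, -1.18 ± 0.102 in Resilient and -0.73 ± 0.317 in Susceptible. The ratio was lower in each D1 group than in the D2 group of the same condition, and the wide spread of D2 Susceptible, from -0.98 to -0.30, comes with the 2 libraries of low Fkbp4.

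Tsc22d3 (ENSMUSG00000031431, chromosome X, 140539528 to 140600659) encodes GILZ, a leucine zipper protein that glucocorticoids induce and that restrains inflammatory signalling. It was 28.7, 27.0, 33.8, 39.4 and 33.0 CPM in D2 Control replicates 1 to 5 and 35.3, 35.2, 31.2, 31.1 and 26.8 CPM in D2 Resilient. In D2 Susceptible it was 57.5, 57.3, 31.6, 37.2 and 26.7 CPM. Replicates 1 and 2 lay above all other libraries, whose range was 26.7 to 39.4 CPM, and the other 3 Susceptible libraries lay among the Control and Resilient ones. The log2 difference was 0.38 against Control (SE 0.145, 1.30-fold, unadjusted p 0.0143, edgeR adjusted p 0.216) and 0.40 against Resilient (SE 0.145, unadjusted p 0.0102, edgeR adjusted p 0.132). Without replicates 1 and 2 these values were -0.03 and -0.01, and voom, which weights libraries by quality, gave 0.00 and -0.09. With either replicate 3 or replicate 5 of D2 Susceptible left out, Tsc22d3 passed against Resilient, at 0.48 (edgeR adjusted p 0.0351) and 0.52 (edgeR adjusted p 0.0204). The D1 change with Susceptibility minus the D2 change was -0.49 (SE 0.206, edgeR adjusted p 0.637) and -0.08 without those 2 libraries, while 7.79% of all genes had an unadjusted p under 0.05 in that test. For the change from Resilient to Susceptible, 2 of the 9 genes (Tsc22d3 and Hsd11b1) had an unadjusted p under 0.05 in the same kind of test, where 12.4% of all genes did, and 0 of the 9 were called by edgeR, DESeq2 or voom. In D1 the gene held a narrow range of 27.4 to 34.04 CPM over all 15 libraries.

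**Figure D3:**
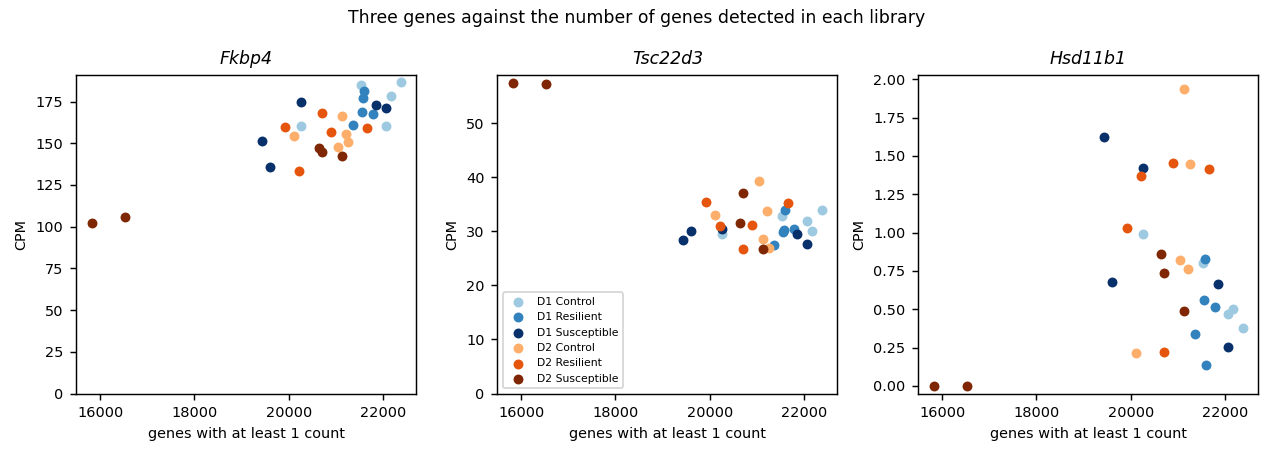
Level of Fkbp4, Tsc22d3 and Hsd11b1 (CPM, vertical axis) against how many genes had 1 count or more (horizontal axis) in each of the 30 libraries, coloured by group. D2 Susceptible replicates 1 and 2, with 15822 and 16525 genes, lie apart in all 3 panels.

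Markers of other cells also moved in D2 Susceptible. Against D2 Control, 4 of 7 D1 neuron markers and 4 of 7 interneuron markers were lower in D2 Susceptible at an unadjusted p under 0.05, and none was called by edgeR. Of all genes, 15.7% had such a p in either direction. The summed D1 markers were 291 to 644 CPM in D2 Susceptible against 352 to 1285 CPM in D2 Control, and the summed interneuron markers 68.2 to 91.3 against 92.7 to 284 CPM. Replicate 5 alone set the upper Control limits, and the other 4 Control libraries reached 748 CPM for D1 markers and 145 CPM for interneuron markers. Within D2 Susceptible, replicates 1 and 2 had the highest summed D1 markers, 644 and 527 CPM, and also the highest oligodendrocyte sums, 1929 and 1497 CPM. Their endothelial sums, 370 and 254 CPM, and astrocyte sums, 212 and 196 CPM, were likewise the highest of the group. Their mural sums, 149.5 and 133 CPM, were the lowest. The markers Chrm4, P2ry12, Acta2 and Slc5a7 were at 0 in replicate 2. Summed oligodendrocyte markers were 850 to 1929 CPM against 662 to 1430 CPM in D2 Control. Their part, and that of the number of genes detected, in the Fkbp4 and Tsc22d3 values was not tested.

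Sgk1 (ENSMUSG00000019970, chromosome 10, 21882184 to 21999903), a kinase that both corticosteroid receptors induce and that acts on ion channels and transporters, was 34.0, 38.6, 38.9, 41.7 and 43.7 CPM in D1 Control. It was 42.6, 37.9, 38.1, 42.6 and 35.8 CPM in D1 Resilient and 52.3, 48.9, 46.2, 40.7 and 40.4 CPM in D1 Susceptible. In D1 Susceptible 3 of 5 libraries lay above all Control and Resilient libraries of the class, and the other 2 lay among them. The log2 difference of D1 Susceptible was 0.21 from Control (SE 0.130, unadjusted p 0.114, edgeR adjusted p 1) and 0.21 from Resilient (SE 0.130, unadjusted p 0.116, edgeR adjusted p 1). Without D1 Susceptible replicate 1 these values were 0.17 and 0.16. In D1 Susceptible against Resilient, 5 of 7 endothelial and 5 of 7 mural markers were higher at an unadjusted p under 0.05, and against Control 1 and 2 of them were, with 0 called by edgeR. Of all genes, 3.49% had such a p against Resilient and 2.40% against Control, in either direction. Endothelial markers summed to 16.6 to 43.1 CPM in D1 Susceptible against 15.1 to 18.6 CPM in D1 Resilient, and mural markers to 15.4 to 39.8 against 12.9 to 16.6 CPM. Of the libraries with the highest Sgk1, replicate 1 had the highest endothelial sum of its group, and replicates 2 and 3 had the lowest, 19.8 and 16.6 CPM. Summed D2 neuron markers were 1120 to 2771 CPM in D1 Susceptible, 1333 to 2753 CPM in D1 Resilient and 1331 to 2254 CPM in D1 Control. Their medians were 2372, 1567 and 1373 CPM in the same order. Replicates 1, 2 and 3 of D1 Susceptible held 2771, 1120 and 1597 CPM. The part of all these cells in the D1 Susceptible values of Sgk1, Fkbp5 and Ddit4 was not tested. In D2 Susceptible the libraries were the most spread of any group, from 29.4 CPM in replicate 1 to 59.5 CPM in replicate 3.

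Ddit4 (ENSMUSG00000020108, chromosome 10, 59949669 to 59951834), an inhibitor of mTOR signalling that rises with glucocorticoids and cell stress, was 61.4, 71.0, 55.3, 58.4 and 60.2 CPM in D1 Control. In D1 Resilient it was 72.6, 93.03, 67.4, 67.4 and 66.99 CPM, and in D1 Susceptible 55.1, 61.6, 53.6, 75.3 and 59.3 CPM. All 5 D1 Resilient libraries lay above 4 of the 5 D1 Control libraries, with replicate 2 of Resilient far above the other 4. The difference was 0.26 from Control (SE 0.159, edgeR adjusted p 1), and D1 Susceptible differed from D1 Resilient by -0.27 (SE 0.160, edgeR adjusted p 1). Without D1 Resilient replicate 2 these values were 0.17 and -0.17. In D2 the libraries ranged from 47.2 to 104 CPM, with overlap between all 3 conditions.

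Zbtb16 and Hsd11b1 were the scarce members. Zbtb16 (ENSMUSG00000066687, chromosome 9, 48654297 to 48836222), a zinc finger transcription factor that glucocorticoids induce, was 0.855, 2.98, 1.47, 2.16 and 3.66 CPM in D2 Resilient and 5.67, 4.38, 3.21, 2.89 and 1.71 CPM in D2 Susceptible. Replicates 1 and 2 of D2 Susceptible were above all Resilient libraries, and the other 3 were among them. The log2 difference was 0.68 (SE 0.353, edgeR adjusted p 0.291), and 0.22 without those 2 libraries. Hsd11b1 (ENSMUSG00000016194, chromosome 1, 193221634 to 193264075), which regenerates active corticosterone inside cells, had 0 to 111 counts per library and at most 1.93 CPM. It had 0 counts in D2 Susceptible replicates 1 and 2. There, 3 counts, taken as an approximate upper limit for a count of 0, would be 0.0644 and 0.0543 CPM. This limit covers counting error only. The other 3 D2 Susceptible libraries held 0.860, 0.735 and 0.485 CPM, within the range of 0.215 to 1.93 CPM in D2 Control. The D2 Susceptible difference was -1.30 from Control (SE 0.798, edgeR adjusted p 0.429) and -1.39 from Resilient (SE 0.799, edgeR adjusted p 0.347), and without those 2 libraries it was -0.58 and -0.67.

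Several of the 9 genes differed between the D1 and D2 libraries. Every D1 library came from D1-Cre-RT mice and every D2 library from A2A-Cre-RT mice, so neuron class and mouse line cannot be told apart. In Control libraries 2 of the 9 passed the edgeR adjusted p of 0.05, where 8.30% of all genes did. These were Zbtb16, higher in D1 (3.51% of all genes were), and Fkbp5, lower in D1 (4.80% of all genes were). Over all 3 conditions 5 of the 9 passed, where 29.3% of all genes did. Fkbp4 and Zbtb16 were higher in D1 (13.8% of all genes were), and Nr3c2, Fkbp5 and Ddit4 were lower (15.5% of all genes were). Without D2 Susceptible replicates 1 and 2 2 were higher (16.2% of all genes were) and 4 lower (13.8% of all genes were), the added gene being Sgk1. The values of the other 5 were then 0.17 for Fkbp4, 1.451 for Zbtb16, -0.12 for Nr3c2, -0.19 for Fkbp5 and -0.32 for Ddit4. The median log2 difference of the 9 genes was -0.16, and that of all genes tested 0.00.

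**Figure D4:**
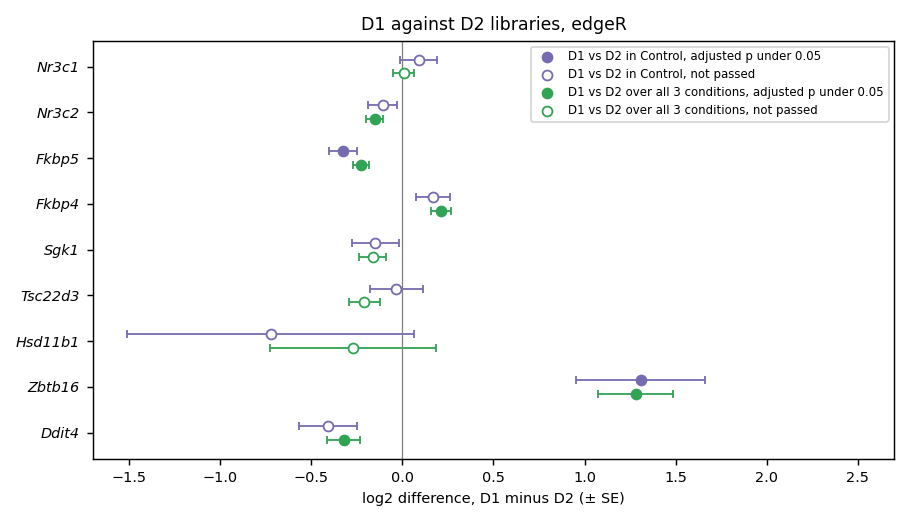
Log2 difference between D1 and D2 libraries (points, with standard error bars, from edgeR) for the 9 genes, in Control libraries and over all 3 conditions. Filled points passed an adjusted p of 0.05. Zbtb16 lies farthest to the right, at 1.31 and 1.28, and Fkbp5 is the other gene that passed in both.

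Zbtb16 had the widest class difference of the genes that passed. In Control libraries it was 9.35, 3.97, 5.90, 4.62 and 5.97 CPM in D1 and 2.35, 1.38, 1.95, 3.16 and 3.18 CPM in D2. The D1 and D2 libraries did not overlap, which was so for 11.7% of all genes, and for 2 of the 9. The log2 difference was 1.31 (SE 0.354, 2.48-fold, edgeR adjusted p 0.0169), and it did not pass without D1 Control replicate 1 (1.09, edgeR adjusted p 0.0551) or without D2 Control replicate 2 (1.18, edgeR adjusted p 0.0564). Over all 3 conditions it was 1.28 (SE 0.205, edgeR adjusted p 1.24e-05), with 10 of 15 D1 libraries above all 15 D2 libraries.

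Fkbp5 was the other gene without overlap in Control. Its D1 Control libraries, given above, were all at or under 60.7 CPM and its D2 Control libraries at or over 62.7 CPM. The log2 difference was -0.33 (SE 0.0772, 0.797-fold, edgeR adjusted p 0.00578). Over all 3 conditions it was -0.23 (SE 0.0446, edgeR adjusted p 0.000231), with 11 of 15 D2 libraries above all 15 D1 libraries.

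Fkbp4 ran the other way from its paralogue. Over all conditions the D1 mean was 169 ± 13.5 CPM and the D2 mean 146 ± 19.5 CPM (SD, n = 15). D1 was higher by 0.21 on the log2 scale (SE 0.0542, edgeR adjusted p 0.00327), and 9 of 15 D1 libraries lay above all D2 libraries. For Nr3c2 the D1 mean of 67.5 ± 5.12 CPM and the D2 mean of 75.01 ± 6.41 CPM differed by -0.15 on the log2 scale (SE 0.0456, edgeR adjusted p 0.0114). For Ddit4 the means of 65.2 ± 10.2 and 81.3 ± 16.7 CPM differed by -0.32 (SE 0.0920, edgeR adjusted p 0.00818).

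In Control alone, Ddit4 was 91.5, 91.1, 95.7, 81.5 and 47.2 CPM in D2, so that 4 libraries lay above all D1 Control libraries and replicate 5 below all of them. The Control difference was -0.41 (SE 0.159, edgeR adjusted p 0.118), and without D2 Control replicate 5 it was -0.54 and passed (edgeR adjusted p 0.0132), as it did by voom (-0.54, limma adjusted p 0.000964). Sgk1 did not pass over all conditions, at -0.16 (SE 0.0750, edgeR adjusted p 0.104), but did without D2 Susceptible replicates 1 and 2 (-0.18, edgeR adjusted p 0.0266), without replicate 1 alone (-0.19, edgeR adjusted p 0.0195) and by voom (-0.19, limma adjusted p 0.00209). Tsc22d3 was at -0.21 (SE 0.0841, edgeR adjusted p 0.0600) and at -0.06 without those 2 libraries, while DESeq2 called it (adjusted p 0.0461), as did edgeR without D2 Susceptible replicate 3 or 5 (edgeR adjusted p 0.0374 and 0.0164).

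Markers of other cell types differed between the classes along with these genes. Endothelial markers summed to 15.1 to 43.1 CPM in D1 libraries and 63.7 to 370 CPM in D2 libraries, and 7 of 7 were called lower in D1 by edgeR. For mural markers the ranges were 12.9 to 39.8 and 98.4 to 265 CPM (6 of 7 lower in D1), and for astrocyte markers 44.3 to 172 and 76.6 to 223 CPM (8 of 8 lower in D1). Oligodendrocyte markers summed to 394 to 1055 and 448 to 1929 CPM (8 of 8 lower in D1). Interneuron markers summed to 296 to 483 CPM in D1 and 68.2 to 284 CPM in D2 (6 of 7 higher in D1), and cortical pyramidal markers to 503 to 967 and 169 to 565 CPM (5 of 5 higher in D1). Endothelial and mural sums, lower in D1, and interneuron sums, higher in D1, did not overlap between the classes. Of the lists for these cell types, the markers at 0 in any library were Kcnj8 in 1 library, Acta2 in 3 and Slc5a7 in 1. How much of the class differences of Fkbp5, Nr3c2, Ddit4, Fkbp4 and Zbtb16 comes with these cells was not tested.

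Genes around the pathway were taken from 5 lists, for chaperones of steroid receptors, glucocorticoid metabolism and transport, coregulators, further glucocorticoid-induced genes, and relatives and partners of the members. In each of the 6 stress comparisons edgeR called 0 genes of every list. At an unadjusted p under 0.05 the D2 Susceptible against Resilient comparison had 8 of 17 chaperones (2 higher, 6 lower), 1 of 7 metabolic genes, 5 of 16 coregulators, 7 of 25 induced genes and 4 of 19 relatives, against 19.1% of all genes. DESeq2 called 2 chaperones, 1 metabolic gene, 4 coregulators, 3 induced genes and 3 relatives there, beside 5.04% of all genes, and voom 0 of each, beside 0.00516% of all genes. The lists were chosen with earlier results of these data known. Their counts beside the shares of all genes are therefore a description and not an independent test. Between the classes the lists differed as follows, over all 3 conditions. Beside them, 29.3% of all genes passed, 13.8% higher in D1 and 15.5% lower.

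Of 17 chaperones and co-chaperones tested, 8 were higher in D1 and 0 lower, with a median log2 difference of 0.21. Without D2 Susceptible replicates 1 and 2, 9 were higher and 0 lower, where 16.2% of all genes were higher and 13.8% lower. Hspa8, the constitutive Hsp70, averaged 2689.7 ± 394 CPM in the D1 libraries against 2110.5 ± 232 CPM in the D2 libraries (SD, n = 15 each), a shift of 0.35 in log2 (edgeR adjusted p 3.89e-05). Dnaja1, an Hsp40 that works with it, differed by 0.27 (edgeR adjusted p 0.000509), and Ppp5c, a phosphatase of the receptor complex that resembles Fkbp5 in its TPR domain, by 0.35 (edgeR adjusted p 0.000794). The direction was that of Fkbp4 and opposite to that of Fkbp5. Voom called 11 chaperones higher and 1 lower, where it called 20.7% of all genes higher and 19.2% lower.

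Of 25 further glucocorticoid-induced genes tested, 0 were higher in D1 and 14 lower (15.5% of all genes were lower), and in Control alone 7 were lower (4.80% of all genes were). Their median log2 difference was -0.48, where that of all genes was 0.00. The count was 14 also without D2 Susceptible replicates 1 and 2, where 13.8% of all genes were lower. Mt1 and Mt2, metallothioneins that are also made in astrocytes, differed by -0.83 (40.6 ± 8.29 CPM in D1, 72.2 ± 13.5 in D2, edgeR adjusted p 2.32e-08) and -1.44 (10.7 ± 3.20 and 29.0 ± 9.21 CPM, edgeR adjusted p 3.02e-08). Mfsd2a, a lipid transporter of brain endothelium, averaged 0.918 ± 0.643 CPM in D1 against 5.72 ± 1.64 CPM in D2 (log2 value -2.71, edgeR adjusted p 5.45e-09). The low side of these genes was D1, as it was for endothelial, mural and astrocyte markers, whose part in these values was not tested.

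Of 7 genes of glucocorticoid metabolism and transport tested, 1 passed. Abcb1a, the efflux pump of the blood-brain barrier that carries corticosteroids, averaged 1.56 ± 1.81 CPM in D1 against 13.5 ± 3.59 CPM in D2 (log2 value -3.39, SE 0.265, edgeR adjusted p 4.51e-11). It is a known product of endothelial cells, whose markers were also lower in D1, and their part in the Abcb1a value was not tested. Of 16 coregulators, 2 were higher in D1 (13.8% of all genes were) and 2 lower (15.5% of all genes were). The Mediator subunit Med14 (0.25, edgeR adjusted p 0.000474) and the orphan nuclear receptor Nr2f2 (0.53, edgeR adjusted p 0.0242) were higher. The chromatin remodeller Smarca4 (-0.18, edgeR adjusted p 0.0326) and the acetyltransferase Crebbp (-0.44, edgeR adjusted p 0.0459) were lower. Without D2 Susceptible replicates 1 and 2, 3 coregulators were higher (16.2% of all genes were) and 0 lower (13.8% of all genes were). Neither lower call was thus made without those libraries.

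Of 19 relatives and partners, 2 were higher in D1 (13.8% of all genes were) and 10 lower (15.5% of all genes were). Without D2 Susceptible replicates 1 and 2, 2 were higher (16.2% of all genes were) and 7 lower (13.8% of all genes were). Rptor, the mTOR scaffold upstream of which Ddit4 acts, was higher by 0.31 (edgeR adjusted p 0.0100) and Cul3, a ubiquitin ligase scaffold to which BTB proteins such as Zbtb16 can bind, by 0.18 (edgeR adjusted p 0.0221). The lower genes were led by Txnip, an inhibitor of thioredoxin that glucocorticoids also raise, with means of 1.08 ± 0.635 CPM in D1 against 5.59 ± 2.00 CPM in D2 (log2 value -2.44, edgeR adjusted p 9.09e-09). Ndrg1, a substrate of Sgk1, differed by -0.62 (edgeR adjusted p 9.50e-05) and Tsc22d4, a relative of Tsc22d3, by -0.52 (edgeR adjusted p 0.000236). Sgk1 and Tsc22d3 themselves did not pass in that comparison. Endothelial, mural, astrocyte and oligodendrocyte markers were mostly lower in D1 too, and interneuron and cortical pyramidal markers mostly higher. The part of those cells in the values of these relatives and partners was not tested.

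**Figure D5:**
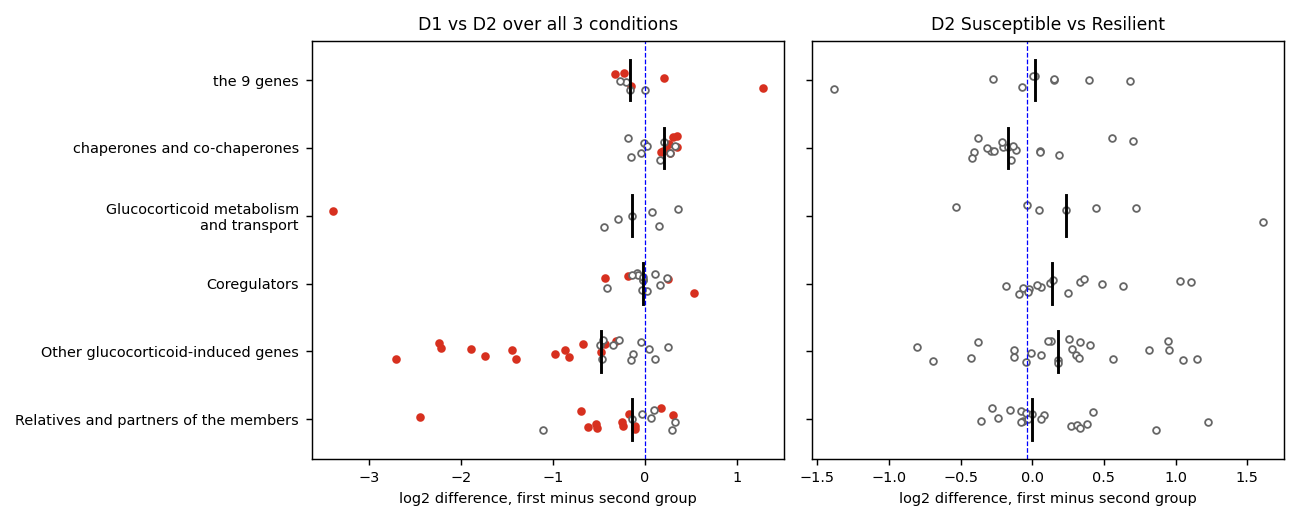
Log2 differences of the genes in each list (points) for D1 against D2 over all 3 conditions (left) and D2 Susceptible against Resilient (right), from edgeR. Red filled points passed an adjusted p of 0.05, open points did not, black bars are list medians and the dashed line is the median of all genes tested. The induced genes lie mostly left of the line in the first panel, and no point in the second passed.

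Within groups, members were compared by the Spearman correlation of their log2 CPM after the mean of each group was taken off, over 30 libraries. These points share library and depth, so the values are a description. The receptors Nr3c1 and Nr3c2 had a rho of 0.55, and 0.48 over the 26 libraries left without D2 Susceptible replicates 1 and 2, D1 Susceptible replicate 1 and D2 Resilient replicate 5. Fkbp5 and Ddit4 had 0.55 over 30 libraries and 0.56 over 26. The value of -0.50 for Tsc22d3 and Hsd11b1 moved to -0.28 over the 26, and that of -0.44 for Hsd11b1 and Zbtb16 to -0.11. Among 12405 genes with a mean CPM of at least 1, the nearest to Nr3c1 was Smarca5 (rho 0.88), to Nr3c2 Dtna (0.86), to Fkbp5 Pofut1 (0.73), to Fkbp4 Sars (0.87) and to Sgk1 Ptcd3 (0.86). The nearest to Tsc22d3 was Gkap1 (0.78), to Zbtb16 Arhgef28 (0.72) and to Ddit4 Islr2 (0.81). Next to these came March7 for Nr3c1 (0.86), Ppfia2 for Nr3c2 (0.84), Ntn1 for Fkbp5 (0.71), Safb for Fkbp4 (0.87), Gpr155 for Sgk1 (0.83), Mrpl51 for Tsc22d3 (0.78), Chd5 for Zbtb16 (0.72) and Gpr162 for Ddit4 (0.79). Over the 26 libraries these values ran from 0.66 (Tsc22d3 and Mrpl51) to 0.90 (Nr3c1 and Smarca5). Fkbp4 then had 0.72 with Sars and 0.77 with Safb, and Tsc22d3 had 0.69 with Gkap1, while Ddit4 had 0.89 with Gpr162. Over 30 libraries, no member was among the nearest 2 genes of another.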

How the data were processed

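Ribosome-associated RNA of 30 pools was sequenced, and the authors deposited raw read counts per gene for 55335 genes. Reads were processed with HISAT2 and HTSeq on GRCm38 (mm10), per the submitters' processing notes; versions, the annotation and use of strand were not given in the sources used here. The 5 summary lines for reads not assigned to a gene, whether outside genes, ambiguous or otherwise set aside (10.1 to 53.3% of reads) were left out of library sizes and tests. Gene models and exon lengths came from GENCODE M21 on GRCm38, which gave symbols for 55154 identifiers and none for 181.

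Counts were filtered (filterByExpr, minimum count 10, minimum total 15; 19368 genes kept), scaled by TMM and fitted in 1 model of 6 groups with edgeR 4.0.16 in R 4.3.3 (quasi-likelihood test, Benjamini-Hochberg threshold 0.05), in 12 comparisons. The fit's biological coefficient of variation was 41.4%. The test was also run on simulated counts that held no class difference and no outlying libraries. That run cannot show how the test handles these features of the data. Log2 CPM for ratios and correlations used a prior count of 1. Alternatives were DESeq2 1.42.0, its size factors within edgeR, voom with sample quality weights (limma 3.58.1), no filter, the compared groups alone, a replicate block, and libraries left out. Plots used matplotlib 3.10.9 and tables pandas 2.3.3 in Python 3.11.15.

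The members and lists were chosen with earlier results of these data known. Besides the members, the text names from each list up to 3 genes per direction with the smallest adjusted p under 0.05 in any comparison, and the 2 genes whose group-centred log2 CPM correlated best with each member of mean CPM 1 or more. The D2 marker Gpr52 was not analysed here.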

Additional observations from a re-analysis of the deposited data

Results flagged for a closer look

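In groups of 5 libraries, a library was singled out when its gap to the nearest other library exceeded 0.710 of the range of the group. Chance does this in about 1 of 20 groups, and 3 of the 66 groups checked met it. Fkbp5 was 83.04 CPM in D2 Susceptible replicate 1, where the other 4 libraries lay between 73.1 and 75.7 CPM. Ddit4 was 93.03 CPM in D1 Resilient replicate 2, where the other 4 lay between 66.99 and 72.6 CPM. The log2 ratio of Fkbp5 to Fkbp4 was -0.98 in D1 Susceptible replicate 5, where the other 4 lay between -1.51 and -1.39.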

How the results depend on the processing

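Among single values of the 9 genes, 1034 of 1050 with 1 library left out and 268 of 282 under other settings kept their direction and their side of the threshold. Many of the fits with 1 library left out dropped a library outside the groups compared, which bears on a value only through the shared filter, scaling and spread. Most of the values had also not passed to begin with, so these shares say little on how firm a value is. Reversed values were those of Nr3c1 in D2 Susceptible against Control (-0.0341 without D2 Susceptible replicates 1 and 2, -0.0318 also without D1 Susceptible replicate 1 and D2 Resilient replicate 5), Nr3c1 between classes over all conditions (-0.00732 by DESeq2, -0.00719 with its size factors), and Tsc22d3 in D2 Susceptible against Control (-0.0304 and -0.0274 without those 2 and 4 libraries) and against Resilient (-0.00722 and -0.0705, and -0.0868 by voom). With 1 library left out, Nr3c1 ranged from -0.00725 to 0.105 in D2 Susceptible against Control and from -0.00632 to 0.0437 between classes, and Fkbp5 from -0.0697 to 0.0164 in D2 Resilient against Control.

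Genes called by DESeq2 were 3 in D1 Susceptible against Control, 1 for D1 Resilient against Control, 8 in D1 Susceptible against Resilient, 255 in D2 Susceptible against Control, 976 in D2 Susceptible against Resilient, 5 for D2 Resilient against Control, 2 in stressed against Control, and 5, 7 and 45 in the differences between classes (Susceptible against Control, Resilient against Control, Susceptible against Resilient). By voom they were 180, 14, 0, 2 and 1 in D1 Resilient against Control, D1 Susceptible against Resilient, D2 Susceptible against Control, D2 Resilient against Control and D2 Susceptible against Resilient, 5511 between classes in Control (4 of the 9 genes) and 160 in the Resilient difference between classes. With only the compared groups they were 13 in D1 Resilient against Control, 1 in D2 Resilient against Control, 0 in D2 Susceptible against either other group, 2696 between classes in Control and 12 in the Resilient difference; for the comparisons that use all 6 groups this is the model already given. Without a filter D2 Susceptible against Control and stressed against Control had 0. Without D2 Susceptible replicates 1 and 2 the counts were 0 in D2 Susceptible against Control, 0 against Resilient, 3134 between classes in Control, 0 in stressed against Control, and 1 and 1 in the Resilient against Control and Susceptible against Resilient differences between classes. Without the 4 libraries they were 0, 0, 3302 and 0 in the first 4 of these. The cause was not tested.

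With 1 library left out, genes called ranged from 0 to 9 in D1 Susceptible against Resilient (9 without D1 Susceptible replicate 3), 0 to 828 in D2 Susceptible against Control, 0 to 1964 in D2 Susceptible against Resilient, 0 to 1 for D2 Resilient against Control, 981 to 2151 between classes in Control, 0 to 1 in stressed against Control and 0 to 156 in the Susceptible against Resilient difference between classes. The highest D2 counts, 828, 1964 and 156, came without D2 Susceptible replicate 3, and 170 and 1607 without replicate 5. Of the 9 genes, 0 to 1 were called in D2 Susceptible against Control, 0 to 2 against Resilient and 1 to 3 between classes in Control. With the replicate number as a block, 4 genes were called in D2 Susceptible against Control, 0 in stressed against Control and 0 of the 9 in any stress comparison. The numbers did not pair libraries: 0 of 75 same-numbered pairs correlated above 0.1 and 1 of 30 libraries correlated best with its own number. Low counts limit Hsd11b1, with at most 111 per library.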
